A study of Mus musculus with 6 samples.

Results

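The cadherins and protocadherins measured in mouse cochlear ducts are adhesion proteins that bind their like on neighbouring cells in the presence of calcium. Members were the genes with a symbol made of Cdh and a number or starting with Pcdh, leaving out Cdh23 and Pcdh15, which form the tip link of hair cells (HCs). There were 58 such genes among the 14865 genes of the table, of which 15 were classical cadherins, 32 were clustered protocadherins and 11 were other members. RNA was taken at postnatal day 8 (P8) from mice labelled C57BL/6. In the Gfi1cre/+ group 1 copy of Gfi1 carries Cre recombinase in place of part of the gene, so that Cre is driven by the Gfi1 locus, and the Gfi1+/+ group carries no Cre. Each genotype had 3 libraries, and each Gfi1+/+ library came from 1 mouse whereas each Gfi1cre/+ library pooled 3 mice, so that the spread between Gfi1cre/+ libraries is one between averages. The comparison asks whether the family differs between the genotypes at an age chosen to come ahead of a later loss of HCs. Values of 3 libraries are listed in the order of their replicate numbers, and the labels state no pairing by number.

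Classical cadherins hold epithelial, vascular, glial and mesenchymal cells together through the catenins that bind their intracellular tails. Type I members such as Cdh1 and Cdh2 mostly form the main adherens junctions of a tissue, and type II members are more restricted to particular cell types. Clustered protocadherins are encoded in tandem arrays, and neurons each express a small choice of them, which lets a cell tell its own processes from those of its neighbours. Delta protocadherins are encoded alone and act in cell sorting and in the wiring of neurons. In the developing cochlea Cdh1 is known from the sensory epithelium, and the boundary between inner and outer parts of the organ of Corti is marked by different classical cadherins.

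Levels are given as normalized reads, which are counted reads divided by 1 size factor per library. Counted reads came to between 13603908 and 19359753 per library, and 100% of the deposited values were whole reads after the division was undone. All 12 genes of a cochlear epithelium list (Epcam, Gjb2, Otoa, Tecta and others) were measured, as were 9 of 10 HC genes and all 10 genes of lists for neurons, glia, endothelium, mesenchyme and bone, so that the tissue held many cell types. A list of erythroid genes summed to between 29479 and 43837 normalized reads in Gfi1+/+ and between 38358 and 66386 in Gfi1cre/+. All 9 of its genes were higher in Gfi1cre/+ at an unadjusted p under 0.05 in limma, against 1.02% of all genes, with 4 of them not overlapping, against 3.45% of all genes. The part of blood in the levels of the members was not tested. Gfi1 itself had 147, 160.2 and 152 normalized reads in Gfi1+/+ and 136, 129.6 and 139 in Gfi1cre/+, and the exons left in the Cre allele still count towards it, so that its level checks the labels only in part. Over the whole table, limma gave 4 genes with adjusted p-values under 0.05 (Benjamini-Hochberg), and all of them lie on chromosome Y. They had at most 1 read in any Gfi1+/+ library and at least 133 in each Gfi1cre/+ library, so that sex and genotype cannot be told apart. Gfi1+/+ replicate 1 stood apart from the other libraries on the first principal component, with a score of -44.0 where the others ran from -0.304 to 16.2.

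Members lie on 9 chromosomes. Chromosome 18 carries 35 of them, namely all 32 clustered genes with Cdh2, Pcdh1 and Pcdh12. Chromosome 8 carries 6, all of them cadherins (Cdh1, Cdh3, Cdh5, Cdh8, Cdh11 and Cdh13). Among these, Cdh3 (positions 106510891 to 106557297 of GRCm38, plus strand) and Cdh1 (106603351 to 106670246, plus strand) are neighbours separated by 46053 bases. Chromosome 15 carries the type II genes Cdh6, Cdh9, Cdh10 and Cdh18, and chromosome 14 carries Cdh24, Pcdh9, Pcdh17 and Pcdh20.

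Levels between members were compared per kilobase (kb) of annotated exon, on the mean of all 6 libraries. Cdh1 stood far above the rest, with 2075 normalized reads per kb, and it alone held between 37.1% and 41.5% of the reads of the family in a library. It was followed by Cdh5 with 315, Cdh11 with 249, Cdh3 with 152, Pcdh1 with 148, Pcdh20 with 139 and Pcdh18 with 127 normalized reads per kb. These 7 were the members at 100 or more per kb, 13 members lay from 30 to 100, and 38 lay under 30. The median gene of the table had 106 normalized reads per kb and the median member 22.3. In the order of levels, 54 of the 57 pairs of neighbours had overlapping ranges over the 6 libraries. The gaps without overlap were those between Cdh1 and Cdh5, between Cdh11 and Cdh3 and between Pcdh18 and Cdh2.

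**Figure D1:**
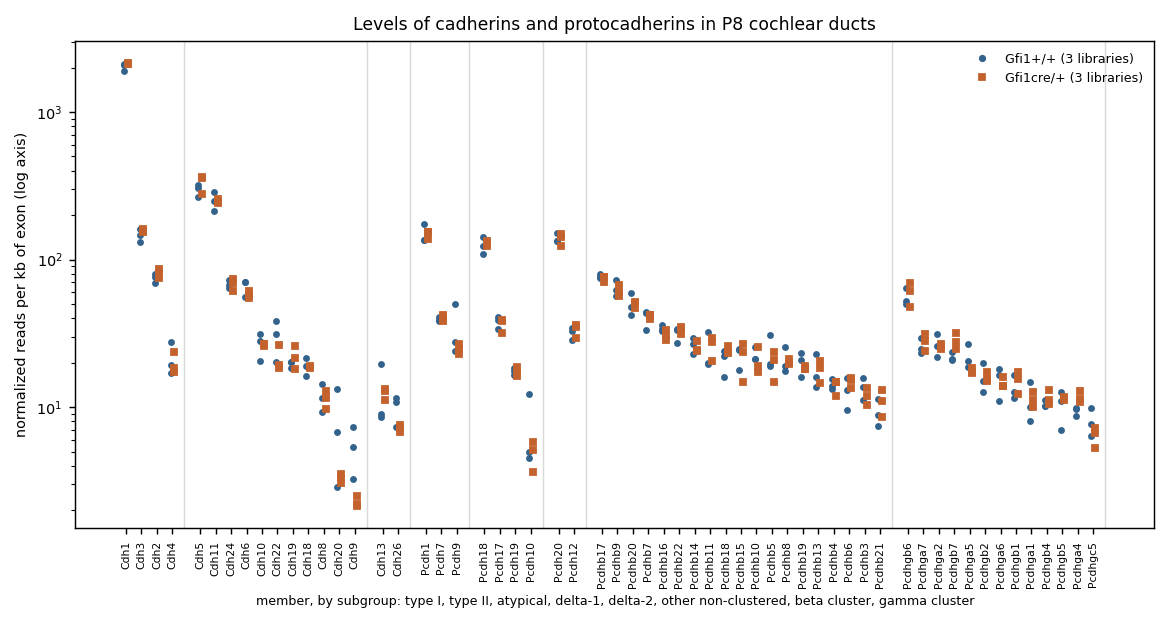
Normalized reads per kb of annotated exon (log axis) for each of the 58 members, by subgroup and in falling order, with a point for each of the 3 libraries of Gfi1+/+ and of Gfi1cre/+. Cdh1 lies at 2075 per kb on average, 7 members reach 100, and the points of both genotypes lie over each other for nearly all members.

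Cdh1 encodes E-cadherin, the junctional cadherin of epithelia (ENSMUSG00000000303). Its level was 8626, 9448 and 9708 normalized reads in Gfi1+/+ and 9699.9, 9833 and 9627 in Gfi1cre/+. Gfi1+/+ replicate 1 was the lowest and the genotypes overlapped. The log2 fold change, Gfi1cre/+ against Gfi1+/+, was 0.07 with a standard error of 0.0626 and a 95% interval of -0.07 to 0.21 (limma on log2(normalized reads + 1), adjusted p = 0.999). Cdh3 encodes P-cadherin and had 576, 641 and 709.9 in Gfi1+/+ and 688, 707 and 671 in Gfi1cre/+, and its genotypes overlapped. Without Gfi1+/+ replicate 3 its log2 fold change was 0.18 with an unadjusted p of 0.0250 in limma's test, against 0.10 and 0.226 with all libraries. In the fit without that library 16.2% of all genes had an unadjusted p under 0.05, against 3.04% with all libraries. The adjusted p of Cdh3 there was 0.234.

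Cdh2 encodes N-cadherin, the type I cadherin of neural and many mesenchymal cells. It had 557, 611 and 640.3 normalized reads in Gfi1+/+ and 607.5, 695 and 657 in Gfi1cre/+, with overlapping genotypes and a log2 fold change of 0.12 (95% interval -0.06 to 0.29). Cdh4, R-cadherin, was the lowest type I member at 20.5 normalized reads per kb. It had 141, 199 and 123 normalized reads in Gfi1+/+ and 126, 172 and 133 in Gfi1cre/+, and replicate 2 was the highest library of each genotype. The summed level of the 4 type I genes was 10660.0 ± 674 normalized reads in Gfi1+/+ (SD, n = 3) and 11205 ± 175 in Gfi1cre/+. Cdh15, the cadherin of muscle satellite cells, was not analysed here.

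Of the type II genes, Cdh5 encodes VE-cadherin of endothelial junctions and Cdh11 the cadherin of mesenchyme and bone-forming cells. Cdh5 had 1109.7, 1275 and 1353 normalized reads in Gfi1+/+ and 1173, 1506 and 1528 in Gfi1cre/+, so that the genotypes overlapped. Its log2 fold change was 0.16 (95% interval -0.09 to 0.42, unadjusted p = 0.172 in limma's test). Without Gfi1cre/+ replicate 1 the log2 fold change was 0.29 with an unadjusted p of 0.0142 and an adjusted p of 0.9992 in limma. A list of 10 endothelium and pericyte genes had summed levels between 15602 and 17321 normalized reads in Gfi1+/+ and between 16136 and 17576 in Gfi1cre/+, 9 of its 10 genes had a log2 fold change above 0, against 49.9% of all genes, and 2 were higher at an unadjusted p-value under 0.05, against 1.02% of all genes, none was at 0 in all libraries, and its part in the level of Cdh5 was not tested. In these bulk samples a difference in the number of cells of a type and a difference in RNA per cell cannot be told apart.

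Cdh11 had 2217, 2544 and 1912 normalized reads in Gfi1+/+ and 2164, 2294 and 2181 in Gfi1cre/+, which lie inside the range of Gfi1+/+. The 95% interval of its log2 fold change ran from -0.21 to 0.21. A list of 10 mesenchyme genes ran from 185246 to 217294 in Gfi1+/+ and from 206696 to 216194 in Gfi1cre/+. Cdh6, a cadherin of kidney and neural crest derivatives, had 633, 632 and 503 in Gfi1+/+ and 497, 516 and 548 in Gfi1cre/+. The log2 fold change of Cdh6 was -0.17 (95% interval -0.39 to 0.05, unadjusted p = 0.106), and -0.28 with an unadjusted p of 0.00200 without Gfi1+/+ replicate 3, the lowest of its genotype. In that limma fit 16.2% of all genes had an unadjusted p under 0.05, and the adjusted p of Cdh6 was 0.113. Cdh24 had 235, 223 and 252 normalized reads in Gfi1+/+ and 258, 213 and 241 in Gfi1cre/+, with overlap, and its 95% interval ran from -0.22 to 0.22.

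Cdh19, a marker of Schwann cell precursors and their descendants, had 79.0, 86.9 and 86.5 normalized reads in Gfi1+/+ and 77.5, 91.4 and 111 in Gfi1cre/+, and the genotypes overlapped. The 10 Schwann cell and glia genes summed to between 41376 and 65399 in Gfi1+/+ and between 46556 and 55782 in Gfi1cre/+. Cdh22 had 116, 75.4 and 142 in Gfi1+/+ and 97.5, 68.4 and 71.7 in Gfi1cre/+. Its log2 fold change of -0.46 had a 95% interval of -0.99 to 0.08 (unadjusted p = 0.0878 in limma). It was -0.71 with an unadjusted p of 0.00607 and an adjusted p of 0.9997 without Gfi1+/+ replicate 2. Without Gfi1cre/+ replicate 1 it was -0.61 with an unadjusted p of 0.0471 and an adjusted p of 0.9992. Cdh10 had between 208 and 316 normalized reads, Cdh8 between 72.2 and 111, and Cdh18 between 73.8 and 97.4, each with a fold change whose 95% interval included 0.

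Among the atypical members, Cdh13 encodes T-cadherin, which is anchored in the membrane by a lipid and has no intracellular tail. Cdh26 was under the minimum for testing, with 34.6, 32.5 and 22.1 normalized reads in Gfi1+/+ and 22.6, 20.4 and 21.7 in Gfi1cre/+, so that its genotypes overlapped. Pcdh1, Pcdh7 and Pcdh9 are delta-1 protocadherins, and Pcdh10, Pcdh17, Pcdh18 and Pcdh19 are delta-2 protocadherins. Pcdh1, the most abundant of them, had 1184, 1196 and 1525 normalized reads in Gfi1+/+ and 1203, 1347 and 1346 in Gfi1cre/+, with a 95% interval of the log2 fold change from -0.22 to 0.23. Pcdh7 was among the steadiest members, with 412, 429 and 406 in Gfi1+/+ and 406, 446.5 and 422 in Gfi1cre/+ (95% interval -0.13 to 0.18).

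Pcdh18 had 665, 766 and 584 normalized reads in Gfi1+/+ and 661, 722 and 685 in Gfi1cre/+, and Gfi1cre/+ lay inside the range of Gfi1+/+. Pcdh17 had 529.5, 508 and 437 in Gfi1+/+ and 409.9, 506 and 496 in Gfi1cre/+, and its genotypes overlapped. Pcdh19, an X-linked gene in which mutations cause epilepsy, had 172, 192 and 182 in Gfi1+/+ and 171, 179 and 195 in Gfi1cre/+. Pcdh12, a protocadherin of endothelial cells, had 173, 208 and 197 normalized reads in Gfi1+/+ and 177, 210.4 and 217 in Gfi1cre/+, so that its genotypes overlapped. Pcdh20 had 738, 826 and 735 in Gfi1+/+ and 678, 824 and 786 in Gfi1cre/+, again with overlap. The 95% intervals of the log2 fold change lay between -0.30 and 0.32 for all 5 of these genes.

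The clustered members were 19 genes of the beta cluster and 13 of the gamma cluster, and alpha cluster genes were not analysed here. Beta genes are mostly single coding exons, whereas gamma genes each have a variable first exon that is spliced to constant exons shared by the whole cluster. In the annotation, the 13 gamma members shared between 2116 and 3157 exonic bases with other genes, and 17 of the 19 beta members shared none. A read from the shared part cannot be assigned to a single gamma gene, and how the counting treated such reads is not given in the sources used here.

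Beta genes had a median of 22.1 normalized reads per kb and ran from 10.02 (Pcdhb21) to 75.6 (Pcdhb17). Gamma genes had a median of 14.9 and ran from 7.20 (Pcdhgc5) to 57.6 (Pcdhgb6). With only the exonic bases that no other gene shares as the length, the gamma median was 31.5 and the beta median 22.1, so the order of the clusters by median depended on the length used. With this length Pcdhgb6 had 105 normalized reads per kb and rank 8 among the members, against rank 13 with all exons. The identifier listed as Pcdhgc5 (ENSMUSG00000023036) is named Pcdhgc4 in the GENCODE annotation.

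Some neighbours within a cluster had like levels, such as Pcdhb3 and Pcdhb4 with 12.7 and 14.03 normalized reads per kb, and others did not. Pcdhb17, the highest beta gene, had 354, 351 and 374 normalized reads in Gfi1+/+ and 328, 353 and 353 in Gfi1cre/+, while its neighbour Pcdhb18 had 112, 121 and 80.2 in Gfi1+/+ and 117.5, 119 and 131 in Gfi1cre/+. Pcdhb9 had 191, 223 and 173 in Gfi1+/+ and 173, 206 and 184 in Gfi1cre/+, and Pcdhb20 had 170.3, 211.5 and 149.8 in Gfi1+/+ and 168, 182 and 182 in Gfi1cre/+. In the gamma cluster Pcdhgb6 had 236, 244 and 301 in Gfi1+/+ and 224, 327 and 287 in Gfi1cre/+. Pcdhgb5, the listed member before it along the chromosome, had between 47.1 and 85.4 over all libraries. Pcdhga2 had 121, 147 and 102 in Gfi1+/+ and 117, 121 and 125 in Gfi1cre/+, and Pcdhga7 had 129.6, 121 and 154 in Gfi1+/+ and 125, 162 and 146 in Gfi1cre/+. The genotypes overlapped in each of these genes.

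**Figure D2:**
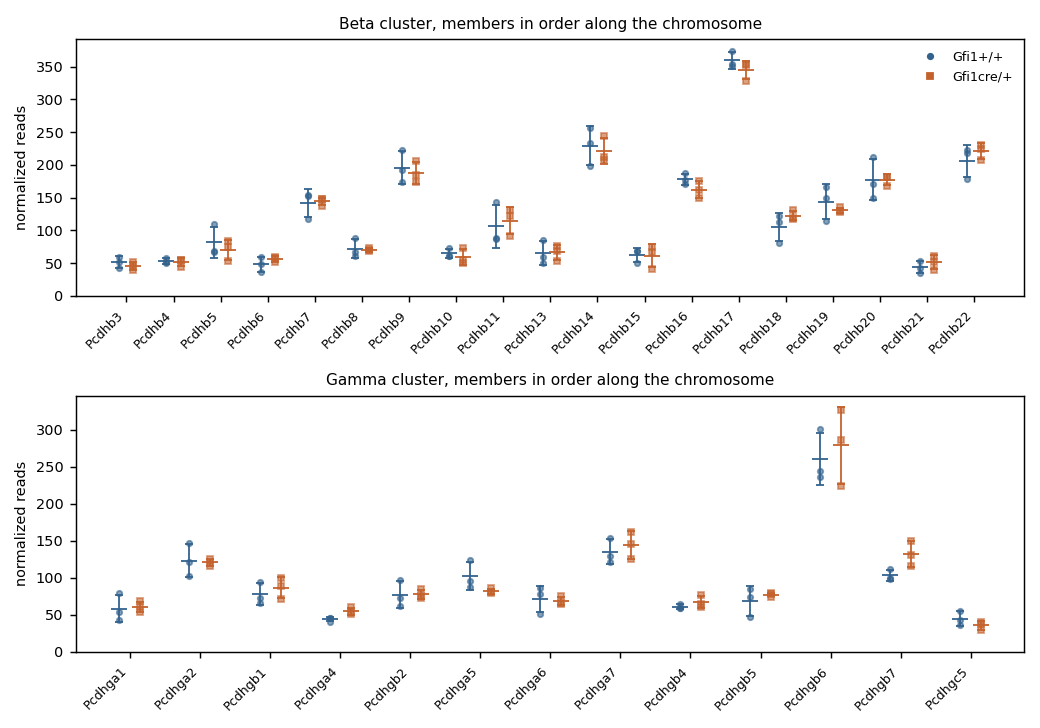
Normalized reads of the 19 beta and 13 gamma protocadherins in their order along chromosome 18, with a point per library and the mean ± SD of the 3 libraries of each genotype. Pcdhb17 and Pcdhgb6 stand highest in their clusters in both genotypes, and Pcdhgb7 has the largest log2 fold change of the gamma genes.

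The summed level of the beta members was 2384 ± 209 normalized reads (SD, n = 3) in Gfi1+/+ and 2355 ± 73.2 in Gfi1cre/+, and that of the gamma members was 1229 ± 42.4 in Gfi1+/+ and 1289 ± 119 in Gfi1cre/+. Both clusters together came to 3613 ± 167 in Gfi1+/+ and 3644 ± 192 in Gfi1cre/+. Single genes rested on few reads, between 29 and 398 per library.

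Of the 58 members, 56 reached the minimum of 40 normalized reads in some library and were tested, and Cdh9 and Cdh26 were not. With limma, 1 member was higher in Gfi1cre/+ at p under 0.05 before adjustment, where 1.02% of the 14455 genes tested were, and 0 were lower, where 2.02% of all genes were. No member had an adjusted p-value under 0.05, against 0.0277% of all genes. At an unadjusted p-value under 0.05, edgeR's test on the recovered reads gave 1 member higher and 1 lower, against 526 of all genes (3.64%), and DESeq2 gave 0 higher and 1 lower, against 375 of all genes (2.59%). The lower member was Cdh20 with both. The median log2 fold change was 0.0020 over the 14 classical genes tested, 0.02 over the 32 clustered genes and 0.0015 over the 10 other genes, beside -0.00012 over all genes tested. There were 31 members with a log2 fold change above 0 and 25 below, and 49.9% of all genes were above 0.

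That member was Pcdhgb7, a gamma cluster gene. It had 99.98, 98.4 and 112 normalized reads in Gfi1+/+ and 116, 130.5 and 150.02 in Gfi1cre/+, from between 81 and 159 reads per library. Each Gfi1cre/+ library lay above each Gfi1+/+ library. The log2 fold change was 0.34 (standard error 0.131, 95% interval 0.05 to 0.64, unadjusted p = 0.0274, adjusted p = 0.999 in limma), a 1.28-fold ratio of mean levels. The unadjusted p rose to 0.0588 without Gfi1+/+ replicate 1, to 0.0711 without Gfi1+/+ replicate 2, to 0.0629 without Gfi1cre/+ replicate 2 and to 0.123 without Gfi1cre/+ replicate 3, with log2 fold changes from 0.25 to 0.43 over the fits without a library. All 6 members of the Pcdhgb group had a log2 fold change above 0, with a median of 0.15. Of all genes, 49.9% were above 0. The pattern was noticed after the values were seen, and the other 5 had unadjusted p-values over 0.05 in limma. The summed level of the 6 genes was 609, 589 and 749 normalized reads in Gfi1+/+ and 627, 774 and 762 in Gfi1cre/+, with overlapping genotypes.

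The genotypes did not overlap in 3 of the 56 members tested, against 7.52% of all genes, and all were gamma genes. By direction, 2 were higher, against 3.45%, and 1 was lower, against 4.07%. Besides Pcdhgb7 these were Pcdhga4, which was higher, and Pcdhga5, which was lower. Pcdhga4 had 45.7, 40.8 and 46.4 normalized reads in Gfi1+/+ and 54.0, 60.4 and 50.95 in Gfi1cre/+, with a log2 fold change of 0.31 (95% interval -0.10 to 0.72, unadjusted p = 0.125). Pcdhga5 had 87.6, 125 and 96.0 in Gfi1+/+ and 80.9, 79.0 and 85.9 in Gfi1cre/+, with a log2 fold change of -0.31 (95% interval -0.66 to 0.05, unadjusted p = 0.0807). Without Gfi1+/+ replicate 1 the log2 fold change of Pcdhga5 was -0.41 with an unadjusted p of 0.0287. In that limma fit 2.1% of all genes had an unadjusted p under 0.05, and no member had an adjusted p under 0.05. An exact permutation test of 3 libraries against 3 cannot give a two-sided p under 0.1, the value for groups that do not overlap.

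**Figure D3:**
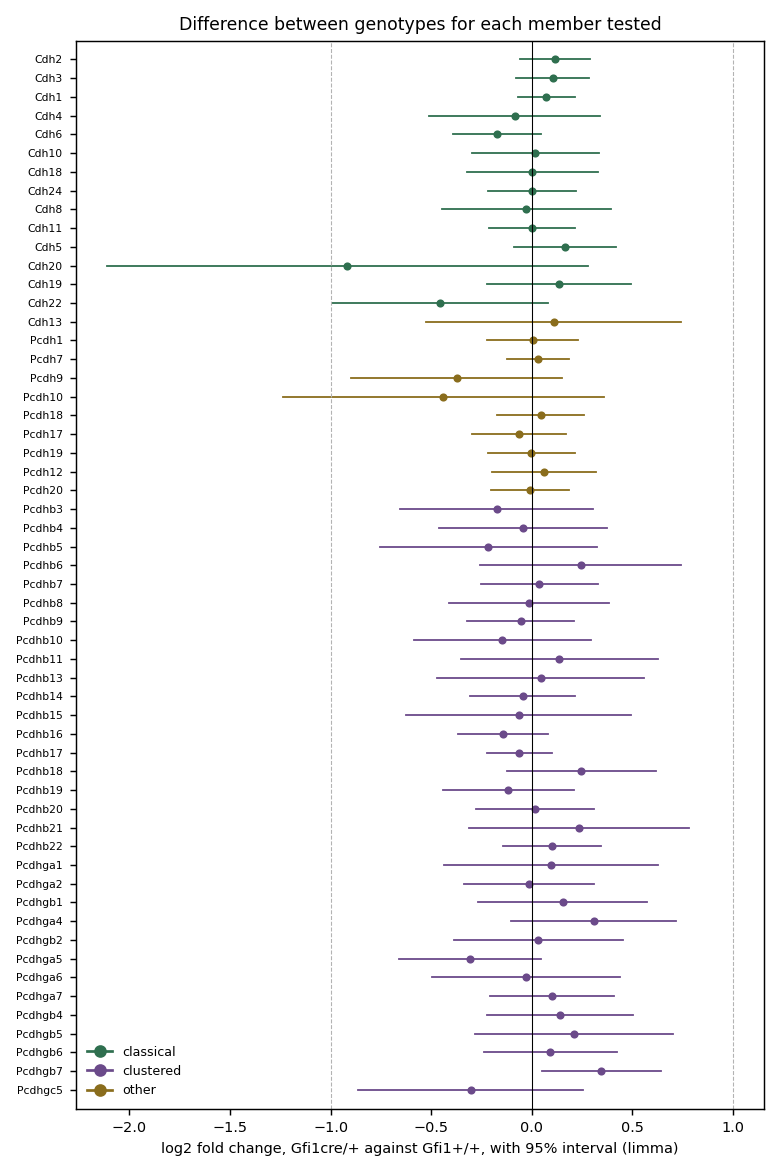
The log2 fold change of each of the 56 members tested, Gfi1cre/+ against Gfi1+/+, with its 95% interval from limma and with dashed lines at a fold change of 2 in either direction. The interval of Pcdhgb7 lies above 0, all others include 0, and those of Cdh20 and Pcdh10 reach past the lower dashed line.

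These intervals bound the differences that the libraries allow. For 54 of the 56 members the 95% interval lay within a fold change of 2 in either direction, and for 33 it lay within 0.5 on the log2 scale. The exceptions to the former were Cdh20 and Pcdh10. The median distance from the log2 fold change to either end of its interval was 0.18 for type I genes, 0.32 for type II genes and 0.40 for clustered genes, and over all genes tested it was 0.19. The median SD of log2(normalized reads + 1) between the 3 Gfi1+/+ libraries was 0.216 over the members tested, and that between the Gfi1cre/+ libraries was 0.124. Counting error alone gives some of this spread. The SD within genotypes was over 2 times that of counting in 18 of the 56 members (32.1%) and in 32.6% of all genes. It was so in 3 of the 32 clustered genes, which had between 29 and 398 reads per library. With few reads the counting error is larger and this ratio is harder to reach. Whether the clustered genes vary less than other genes was not tested.

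Several members were high in Gfi1+/+ replicate 1, a set chosen after its values had been seen. In 7 of the 56 members tested (12.5%) and in Cdh9, this library lay over 0.5 on the log2 scale above the mean of the other Gfi1+/+ libraries, as it did in 4.14% of all genes tested. In 1 member tested, Pcdhb6 (1.79%), it lay over 0.5 below, as it did in 1.49% of all genes tested. It was above all the other libraries in 15 of the 56 members, against 24.9% of all genes, and below them in 8, against 23.5%. Without it, 2 members, Cdh13 and Pcdhga5, had an unadjusted p under 0.05 in limma, against 2.1% of all genes. A list of 10 neuron genes (Snap25, Tubb3, Nefl, Nefm and others) had summed levels of 10228, 3702 and 2317 normalized reads in Gfi1+/+ and 1837, 2315 and 2663 in Gfi1cre/+, with Gfi1+/+ replicate 1 the highest library in all 10 genes and no gene at 0. Of these, 6 were lower in Gfi1cre/+ with an unadjusted p under 0.05, against 2.02% of all genes. The part of neurons in the levels of these members was not tested.

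Cdh20, a type II cadherin, had 53.1, 27.2 and 11.6 normalized reads in Gfi1+/+ and 12.2, 13.3 and 14.15 in Gfi1cre/+, from between 11 and 43 reads per library. Replicates 1 and 2 of Gfi1+/+ were above all Gfi1cre/+ libraries and replicate 3 was below them. Its log2 fold change of -0.92, the lowest among the members tested, had a 95% interval of -2.11 to 0.28 (unadjusted p = 0.117). It was -1.46 with an unadjusted p of 0.00630 without Gfi1+/+ replicate 3 and -0.41 without Gfi1+/+ replicate 1. In the limma fit without replicate 3, 16.2% of all genes had an unadjusted p under 0.05, and the adjusted p of Cdh20 was 0.1485. Cdh9, a type II cadherin of synaptic partners that was under the minimum for testing, had 25.9, 18.85 and 11.6 in Gfi1+/+ and 7.83, 8.88 and 7.55 in Gfi1cre/+, from between 8 and 21 reads per library, and its genotypes did not overlap.

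Pcdh9 had 337, 188 and 162 normalized reads in Gfi1+/+ and 168, 181 and 156 in Gfi1cre/+, and the latter lay close to Gfi1+/+ replicates 2 and 3. Its log2 fold change was -0.37 (unadjusted p = 0.142), -0.06 without Gfi1+/+ replicate 1 and -0.58 with an unadjusted p of 0.0185 without Gfi1+/+ replicate 3. The last of these limma fits had 16.2% of all genes at an unadjusted p under 0.05, and the adjusted p of Pcdh9 in it was 0.2085. Pcdh10 had 194, 78.5 and 71.7 in Gfi1+/+ and 57.4, 81.7 and 92.5 in Gfi1cre/+, and its log2 fold change moved from -0.44 to 0.01 without Gfi1+/+ replicate 1. Cdh13 had 221, 101 and 96.0 in Gfi1+/+ and 125, 149 and 143 in Gfi1cre/+. For Cdh13 the log2 fold change was 0.11 with all libraries, and without Gfi1+/+ replicate 1 it was 0.50 with an unadjusted p of 0.00453. In the latter limma fit 2.1% of all genes had an unadjusted p under 0.05, and no member had an adjusted p under 0.05. Pcdhb11, Pcdhga1 and Pcdhb13 had 143, 79.0 and 85.2 normalized reads in Gfi1+/+ replicate 1 and lay between 43.25 and 130.5 in the other libraries.

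**Figure D4:**
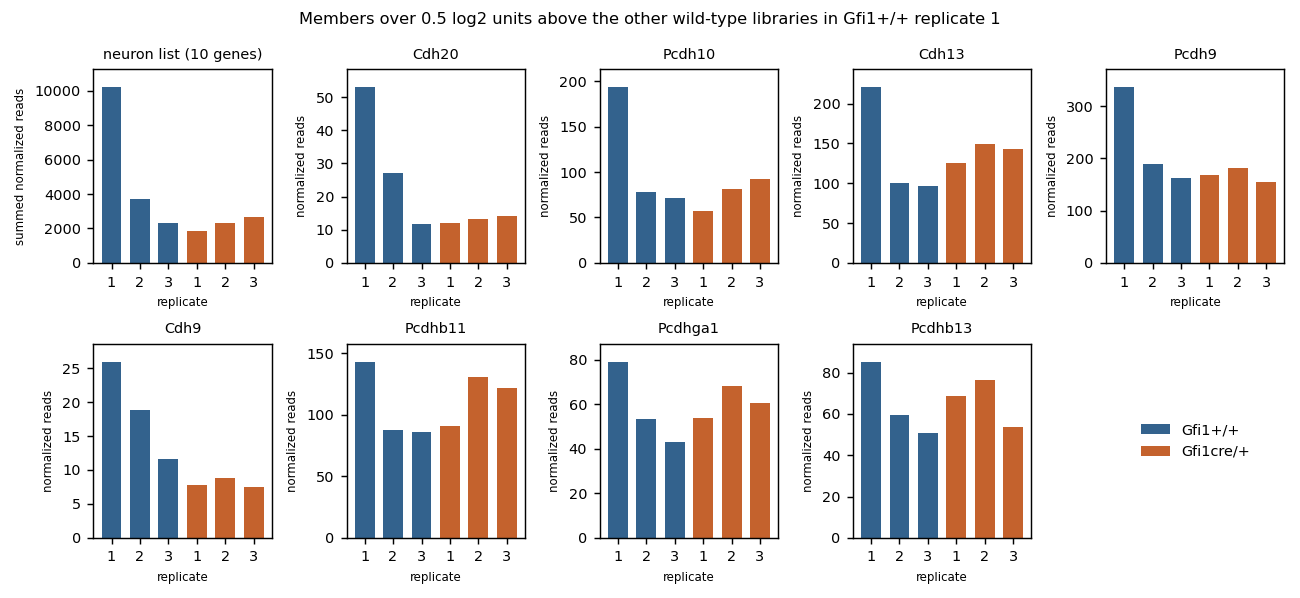
Normalized reads in each library for the summed neuron list of 10 genes and for the 8 members that lay over 0.5 log2 units above the other Gfi1+/+ libraries in Gfi1+/+ replicate 1. Bars start at 0 and stand for 1 library each. The neuron list falls from 10228 in Gfi1+/+ replicate 1 to between 1837 and 3702 in the others.

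Promoter windows of RefSeq on GRCm38.p6 were matched by symbol for 16 of the 58 members. No clustered or type I gene was matched, nor were Cdh5, Cdh11 and Cdh13, so that the motif counts do not describe the whole family. The 250 bases before the RefSeq start of Pcdh9 and Cdh20 are printed. Both genes were high in Gfi1+/+ replicate 1 and their windows hold no annotated exon. Pcdh10 and Cdh9 were also matched and high in that library, and are not printed. CCAAT and its reverse complement ATTGG are in capitals, and they overlap in the window of Cdh20. The window of Pcdh9 is chr14:93890680-93890929 on the minus strand, and that of Cdh20 is chr1:104768270-104768519 on the plus strand. The Cdh20 window stops short of the annotated gene start at 104768529, and the next 30 bases were not found in an annotated transcript of Cdh20.
Pcdh9: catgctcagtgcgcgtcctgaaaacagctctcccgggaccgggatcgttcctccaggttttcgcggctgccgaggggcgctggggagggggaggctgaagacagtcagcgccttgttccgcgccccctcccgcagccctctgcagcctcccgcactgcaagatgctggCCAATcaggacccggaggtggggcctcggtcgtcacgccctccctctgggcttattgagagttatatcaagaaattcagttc
Cdh20: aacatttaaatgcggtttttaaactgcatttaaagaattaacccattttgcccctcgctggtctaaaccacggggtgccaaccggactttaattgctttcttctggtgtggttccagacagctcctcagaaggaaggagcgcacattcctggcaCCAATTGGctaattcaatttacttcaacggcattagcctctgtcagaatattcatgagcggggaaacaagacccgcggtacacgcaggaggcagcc
Of the 16 members, 11 held CCAAT or its reverse complement ATTGG in any of their windows, beside 33.9% of the 32851 promoters of the table. Members are counted by gene, over all windows matched to the gene, whereas the shares of promoters are per window. The counts and shares of motifs are therefore not like for like. CGCT or AGCG was found in 14 of the 16 members and 55.7% of all promoters, and GGGCGG or CCGCCC in 8 of the 16 members and 32.7% of all promoters. All motifs were searched on both strands. The E-box CAGGTG was found in 0 of the 16 members and 17.2% of all promoters, and the other E-box searched, CACGTG, in 0 members and 6.02% of promoters. The TATA box, as TATAAA, was found in 0 members and 12.4% of promoters, and the cyclic AMP element, as TGACGTCA, in 0 members and 1.55% of promoters. The CG pair occurred 18 times in the window of Pcdh9 and 10 times in that of Cdh20, beside a median of 13 over the 16 members and 6 over all promoters. A match of letters is a description of the window and not a binding site.

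Genes that work with the family were taken from lists of catenins, junction adaptors and nectins, other genes of the cadherin superfamily, proteases that cut cadherins, repressors of Cdh1 and regulators of the protocadherin clusters. Of the 59 genes tested, 0 had an unadjusted p-value under 0.05 in either direction, against 3.04% of all genes in limma's test. Their median log2 fold change was 0.02. Ctnnb1, the beta-catenin that binds the tail of classical cadherins, reached 24603 ± 999.7 normalized reads (SD, n = 3) in Gfi1+/+ and 25566 ± 535 in Gfi1cre/+. Ctnna1, the alpha-catenin that links this complex to actin, had 6130.2 ± 178 in Gfi1+/+ and 6404 ± 244 in Gfi1cre/+. Ctnnd1, or p120 catenin, had 650.4 ± 42.4 in Gfi1+/+ and 666 ± 46.8 in Gfi1cre/+. Jup, or plakoglobin, had 4264 ± 388 in Gfi1+/+ and 4319 ± 144 in Gfi1cre/+. The genotypes overlapped for each of these catenins.

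Among the 11 cluster regulators were Ctcf and the cohesin subunits Rad21, Smc1a and Smc3, which take part in the choice among promoters of clustered protocadherins, and Smchd1, which silences them. The 95% interval of the log2 fold change was -0.14 to 0.10 for Ctcf and -0.13 to 0.13 for Smchd1. The genotypes did not overlap for Rad21 and for the giant cadherin Fat2, which were higher in Gfi1cre/+ and made up 2 of the 59 genes, against 3.45% of all genes. Rad21 had 2836 ± 58.5 normalized reads in Gfi1+/+ and 2944 ± 18.4 in Gfi1cre/+, and Fat2 had 2525 ± 137 and 2746 ± 90.01, with unadjusted p-values of 0.295 and 0.0679. Of the 5 repressors of Cdh1, Zeb1, Zeb2, Snai1, Snai2 and Twist1, all had a 95% interval that included 0, with that of Zeb1 from -0.11 to 0.17.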

How the data were processed

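Cochlear duct RNA (polyA) of 3 Gfi1+/+ and 3 Gfi1cre/+ samples was measured by paired-end RNA-seq. The authors used Tophat for alignment to mm10 and HTSeq-count for uniquely mapped reads, and genes under 40 reads were dropped. The annotation, strand setting and versions are not given in the sources used here. The deposited signal is a read count divided by 1 size factor per library (the methods name quantile normalization), and 100% of values were whole reads within 0.006 normalized reads. Genes that reached 40 normalized reads in any library (14455 of 14865) were tested with limma (version 3.58.1, R 4.3.3) on log2(value + 1), eBayes with a trend, genotype only, two-sided, with Benjamini-Hochberg adjustment. This scale understates the fold change of low genes. edgeR (version 4.0.16) and DESeq2 (version 1.42.0) on recovered reads were added after the values had been seen. Lengths and positions came from GENCODE M21 (GRCm38), to which all 58 members matched. A count of 0 allows up to 3 reads, for counting error only. Steps were tested on simulated counts.

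The members and lists were chosen with earlier results of these data known. Values in every library are given for members with an unadjusted p-value under 0.05, members whose genotypes do not overlap, the 3 members of each subgroup with the highest level per kb and a set of well-known members. Of the partner lists, the main catenins were always named. Other members named, and the 2 partners whose genotypes do not overlap, were chosen after their values were seen. Replicates are separate samples of the labels.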

Additional observations from a re-analysis of the deposited data

How the results depend on the processing

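No setting gave a member with an adjusted p-value under 0.05. The number of members at an unadjusted p-value under 0.05 was 1 higher and 0 lower in limma's test as reported. It was 1 lower without a minimum (Cdh9). With a mean of at least 200 it was 0 higher, among 17 members that did not include Pcdhgb7. It was 2 higher without a trend, and 3 lower and 2 higher with array weights (11.5% of all genes). It was 1 lower with edgeR, and 1 lower and 0 higher with DESeq2. With each library left out it ran from 0 to 4 lower and from 0 to 2 higher. The 4 lower were without Gfi1+/+ replicate 3, where 16.2% of all genes passed, and without Gfi1+/+ replicate 1 the share was 2.1%. Shares of all genes were not taken for the other fits that left out a library. They were also not taken without a minimum, without a trend or with the replicate block. The counts of members in those fits therefore have no share to be read against. The labels state no pairing by replicate number. Same-numbered libraries had correlations of -0.0944, 0.107 and -0.0326 between their deviations, and only the libraries numbered 2 correlated best with their own number. As the deviations are taken from means of 3 libraries, these correlations cannot decide whether samples were paired. With the replicate block 2 members were higher, Pcdhgb7 and Cdh5 (unadjusted p = 0.0272 for the latter).

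The median log2 fold change of classical members was 0.0438 over the 8 with a mean of at least 200. Over the fits that left out a library, with 14 classical members, it ran from -0.067 to 0.0917. That of clustered members ran from -0.0601 to 0.0341 and that of other members from -0.0457 to 0.0604. Of 553 values for 30 named members, 490 kept their direction and side of the threshold and 42 changed sign. The sign changes with all libraries were those of Cdh11 (-0.11 with array weights, -0.0072 with edgeR and -0.0077 with DESeq2), Pcdh1 (-0.0039 with edgeR and -0.0042 with DESeq2), Pcdh18 (-0.062 with array weights), Pcdh19 (0.0069 with median centring) and Pcdhb20 (-0.12 with array weights and -0.00024 with DESeq2), and the cause was not tested. With a library left out, the log2 fold change ran from -0.10 to 0.10 for Cdh11, from -0.10 to 0.50 for Cdh13, from -0.0611 to 0.0754 for Cdh24, from -0.23 to 0.11 for Cdh4, from -0.0585 to 0.124 for Pcdh1, from -0.0155 to 0.152 for Pcdh12, from -0.146 to 0.0332 for Pcdh17, from -0.0523 to 0.143 for Pcdh18, from -0.0548 to 0.0423 for Pcdh19, from -0.0682 to 0.0721 for Pcdh20, from -0.0076 to 0.0616 for Pcdh7, from -0.70 to 0.0126 for Pcdh10, from -0.10 to 0.15 for Pcdhb20, from -0.141 to 0.0412 for Pcdhb9, from -0.14 to 0.12 for Pcdhga2 and from -0.0297 to 0.243 for Pcdhgb6. Depth limits the clustered genes, with between 29 and 398 reads each per library.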
